A study of Mus musculus with 20 samples.

Results

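The effect of losing Prdm1 was set against the effect of losing Tcf7, gene by gene, in CD8αα+ αβ intraepithelial lymphocytes (IELs) of the mouse small intestine at steady state. The comparison used 8 of the 20 libraries of the series. Cells of Prdm1fl/fl Cd8cre mice gave 2 libraries (Prdm1 knockout, KO), and Prdm1fl/fl littermates gave 2 (wild type, WT). Tcf7fl/fl Cd8cre mice and Tcf7fl/fl littermates gave 2 libraries each in a second experiment. The floxed alleles were present in all mice of an experiment. Cd8cre, a Cre driver of CD8 T cells, was named in every KO genotype and in none of the littermate genotypes, so Cre itself and the missing gene cannot be told apart. The labels give no age or sex for these libraries. They also do not say whether the 2 libraries of a group came from separate mice, so p-values measure the spread between these libraries, which may be technical. The 2 experiments shared no library. Of 13444 genes in both tables, 10841 had a value of at least 50 in at least 2 libraries of each experiment and were tested.

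CD8αα+ IELs are T cells lodged between epithelial cells of the gut, with high levels of granzymes and natural killer receptors. Prdm1 encodes BLIMP1, a zinc-finger repressor that promotes terminal effector differentiation and tissue residency of T cells. Tcf7 encodes TCF1, an HMG-box factor that acts with β-catenin or with Groucho/TLE corepressors and maintains stem-like and memory T cells. BLIMP1 and TCF1 are known as factors of opposing programmes in CD8 T cells, and the comparison asks which genes their losses move in opposite directions, in the same direction, or singly.

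The 4 Prdm1 libraries held 30138954 to 38385639 reads each, and the 4 Tcf7 libraries were deeper, with 40975335 to 48206386. Values are reads divided by 1 size factor per library, without gene length, and are called signal here. They allow comparisons between libraries of an experiment and not between genes. Prdm1 signal was 6092 and 5117 in its WT libraries and 639.9 and 362 in its KO libraries. Tcf7 signal was 15430.3 and 15606 in its WT libraries and 7757 and 7993 in its KO libraries. A whole-gene value also counts exons outside the deleted part and transcripts of any cells that kept the gene. How complete the deletion was in either experiment was not tested. The defining transcripts of the labelled cells were present in all 8 libraries, with Cd8a at 86285 to 153669.9 and Cd3e at 26788 to 44154. The Prdm1 experiment was noisier: the median residual SD over genes was 0.13 on the log2 scale, against 0.08 in the Tcf7 experiment. Its 2 WT libraries differed from each other in several genes named below, with Tcf7 at 6605 in replicate 1 and 12467 in replicate 2.

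All effects are differences of log2(signal + 1), KO minus WT, from 1 limma fit over the 8 libraries, and ± is the standard error (n = 2 libraries per group). A gene was called when its Benjamini-Hochberg adjusted p was under 0.05. Prdm1 loss moved 1653 genes (15.2%): it raised 847 (7.81% of those tested) and lowered 806 (7.43%). Centred on the median of well expressed genes, the split was 1042 raised and 510 lowered. In the same fit Tcf7 loss moved 39 genes (0.36%), of which 10 rose (0.0922%) and 29 fell (0.268%). The 2 effects differed for 1027 genes (9.47%), with the Prdm1 effect the higher in 563 (5.19%) and the lower in 464 (4.28%). Across all 10841 genes the 2 effects were close to uncorrelated, with Pearson r = -0.07 and Spearman rho = -0.18, given as a description over genes that share libraries.

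**Figure D1:**
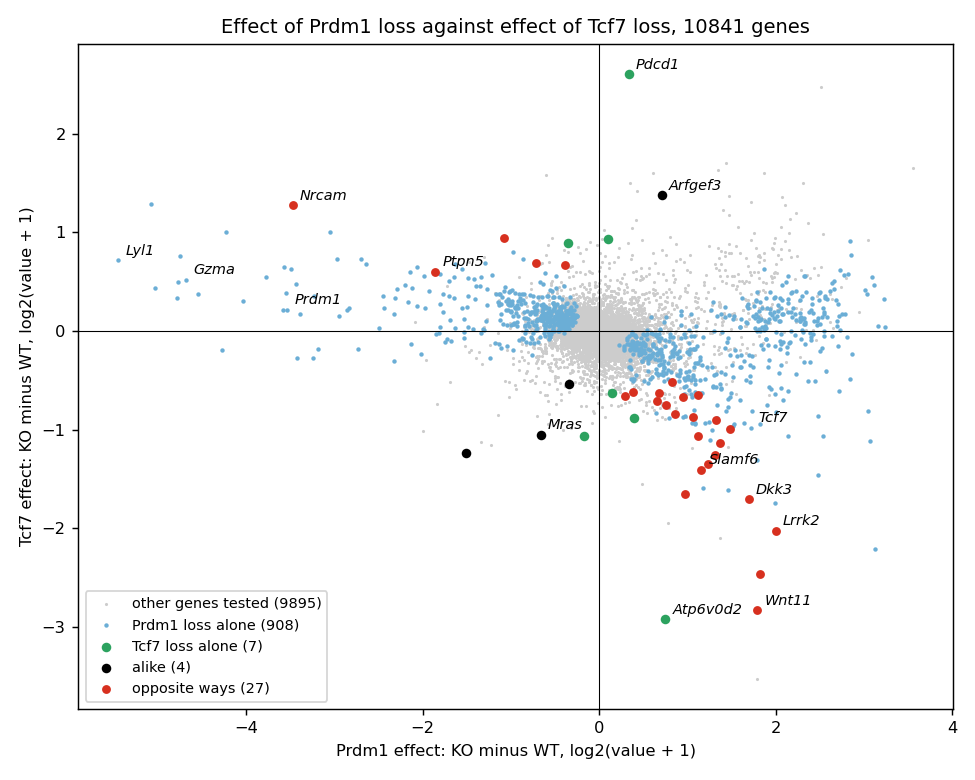
Each point is 1 of 10841 genes, with the log2 effect of Prdm1 loss (KO minus WT) on the x axis and of Tcf7 loss on the y axis; colours give the classes described in the text. Of the 31 genes called for both losses, 27 lie in the upper left and lower right quadrants and 4 in the other two.

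Genes called for both losses numbered 31, which was 1.88% of the genes called for Prdm1 loss and 79.5% of those called for Tcf7 loss. Of all genes tested, 15.2% were called for Prdm1 loss. The joint fit gives both effects of a gene the same standard error, so the 2 calls are not independent. With each experiment fitted alone, Tcf7 loss was called for 445 genes, of which 149 moved opposite ways and 21 alike. Of the 31 genes of the joint fit, 27 (0.249% of genes tested) moved opposite ways and 4 (0.0369%) moved alike. In 22 of the 27 (0.203% of genes tested) Prdm1 loss raised the gene and Tcf7 loss lowered it, and in 5 (0.0461%) the directions were the reverse. The KO and WT values did not overlap for any of the 27 in either experiment, as was also so for 24.7% of all genes tested (52.3% in the Prdm1 and 44.1% in the Tcf7 experiment taken singly). Because these are bulk samples, a fall of a transcript in each cell and a loss of the cells that hold it cannot be told apart.

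Wnt11, which encodes a secreted Wnt ligand, had the largest difference of effects among the 22 (chromosome 7, 98835112 to 98855195, plus strand, GRCm38). Its signal was 794 and 878 in Prdm1 WT and 2922 and 2867 in Prdm1 KO libraries. In the other experiment it was 417 and 450.5 in Tcf7 WT and 64.7 and 55.8 in Tcf7 KO libraries. The KO libraries were thus well above their littermates after Prdm1 loss and well below them after Tcf7 loss. The Prdm1 effect was 1.79 ± 0.13 (adjusted p = 3.3e-05) and the Tcf7 effect was -2.83 ± 0.13 (adjusted p = 2.2e-05). The difference of the effects was 4.62 ± 0.18 (adjusted p = 2.9e-06).

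Lrrk2 encodes a large kinase with a GTPase domain (chromosome 15, 91673175 to 91816120). Its signal was 449 and 780.0 in Prdm1 WT and 2395 and 2345 in Prdm1 KO libraries. Tcf7 WT libraries had 822 and 919, and Tcf7 KO libraries 216 and 210.1. The effects of 2.00 ± 0.21 and -2.02 ± 0.21 were of nearly equal size and opposite sign, and their difference was 4.02 ± 0.30 (adjusted p = 8.8e-05). Cd44, the hyaluronan receptor that marks activated and memory T cells (chromosome 2, 102811141 to 102901665, minus strand), had 1183 and 1144 in Prdm1 WT and 3496 and 3028 in Prdm1 KO libraries. It had 1463 and 1541 in Tcf7 WT and 740.4 and 768 in Tcf7 KO libraries. The Cd44 effects were 1.48 ± 0.09 and -0.99 ± 0.09, with no overlap of KO and WT in either experiment.

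The sequences just upstream of these 3 genes are shown because the genes moved together and each window holds the letters of 1 of the 2 factors' known motifs. RefSeq windows of 250 bases before the gene start (GRCm38) were found for 22 of the 27 genes and searched on both strands. The TCF/LEF motif was searched as CTTTGAT and the BLIMP1 motif as AGNGAAAG, letters that overlap the motif of interferon regulatory factors. The sequences run 5′ to 3′ along the gene's strand, with the motif match in capitals, here always a match on the other strand. The windows are chr7:98834862-98835111 (plus strand) for Wnt11, chr15:91672974-91673174 (plus strand, ended before the annotated gene) for Lrrk2 and chr2:102901666-102901915 (minus strand) for Cd44.
Wnt11: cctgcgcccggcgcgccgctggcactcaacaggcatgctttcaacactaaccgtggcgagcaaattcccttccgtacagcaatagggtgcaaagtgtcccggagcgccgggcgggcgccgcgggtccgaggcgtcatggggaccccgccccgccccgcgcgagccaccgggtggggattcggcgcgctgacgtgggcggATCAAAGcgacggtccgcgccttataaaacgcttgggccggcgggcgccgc
Lrrk2: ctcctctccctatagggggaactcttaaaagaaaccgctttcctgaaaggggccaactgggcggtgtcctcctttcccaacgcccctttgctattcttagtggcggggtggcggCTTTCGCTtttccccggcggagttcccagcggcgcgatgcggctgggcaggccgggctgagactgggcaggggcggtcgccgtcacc
Cd44: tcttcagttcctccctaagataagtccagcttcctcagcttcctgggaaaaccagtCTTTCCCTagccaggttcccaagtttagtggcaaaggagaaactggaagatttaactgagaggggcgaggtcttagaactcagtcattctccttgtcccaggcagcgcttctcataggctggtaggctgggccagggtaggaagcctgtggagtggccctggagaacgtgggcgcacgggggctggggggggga
The Wnt11 window holds a TCF/LEF match that starts 51 bases before the gene start, and the Lrrk2 and Cd44 windows hold BLIMP1 matches that start 87 and 194 bases before it. Among the 22 windows, 1 (Wnt11) held the TCF/LEF letters, against 2.32% of the 8788 windows of all genes tested. The BLIMP1 letters were in 3 (Cd44, Dgka and Lrrk2), against 6.34% of all windows. A match describes the sequence and is not evidence of binding.

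Surface receptors and adhesion molecules of lymphocytes were among the genes raised by Prdm1 loss and lowered by Tcf7 loss. Slamf6, a homophilic receptor used as a marker of stem-like T cells (chromosome 1, 171917515 to 171953170), had 210.0 and 258 in Prdm1 WT, 504 and 539 in Prdm1 KO, 458 and 477 in Tcf7 WT and 152 and 203 in Tcf7 KO libraries. All KO values were above WT after Prdm1 loss and below WT after Tcf7 loss, with effects of 1.16 ± 0.18 and -1.41 ± 0.18. Crtam, an adhesion receptor of cytotoxic and tissue-resident lymphocytes, had 1950.0 and 2265 against 4869 and 4325 in the Prdm1 experiment and 3606 and 3163 against 2173 and 2120.4 in the Tcf7 experiment, WT first. Its effects were 1.13 ± 0.10 and -0.65 ± 0.10. Itgal, the integrin αL chain of LFA-1, went from 1643 and 1669.6 to 2921 and 2949 with Prdm1 loss and from 3138 and 3267 to 2226 and 2261 with Tcf7 loss. The Itgal effects of 0.83 ± 0.07 and -0.51 ± 0.07 were smaller than those of Slamf6 but as clearly separated, since replicates lay close together.

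Several genes of signalling and of the cytoskeleton had the same pattern. Dkk3, a member of the Dickkopf family of Wnt-related secreted proteins, had 122 and 201 in Prdm1 WT, 402 and 645 in Prdm1 KO, 311 and 307 in Tcf7 WT and 88.6 and 100.3 in Tcf7 KO libraries. Its effects were 1.69 ± 0.28 and -1.70 ± 0.28, and the spread between the Prdm1 libraries was wide. The Tcf7 effect of Dkk3 was near the threshold (limma adjusted p = 0.046) and was not called by edgeR (adjusted p = 0.061). Sidt1, which encodes a transmembrane protein of the SID-1 family, had 1339 and 1681 against 3879.7 and 3607 in the Prdm1 experiment, and 2274 and 2195 against 925 and 939 in the Tcf7 experiment. Dgka, the diacylglycerol kinase that dampens T-cell receptor (TCR) signalling, had small and tightly measured effects of 0.39 ± 0.06 and -0.62 ± 0.06. Vav2, a guanine nucleotide exchange factor that acts in lymphocyte signalling, had effects of 0.75 ± 0.11 and -0.75 ± 0.11. Tpm4, a tropomyosin, had 861 and 1066 against 2252 and 1934 after Prdm1 loss and 1264 and 1165 against 603 and 558 after Tcf7 loss. Cpne7, a calcium-dependent phospholipid-binding copine, had effects of 1.37 ± 0.12 and -1.13 ± 0.12. Tdrp had effects of 1.24 ± 0.20 and -1.35 ± 0.20.

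The other 9 genes of this direction, named because they complete the class, were Acpp, Adh1, Bend4, Cachd1, Camsap2, Dsp, Kcnip2, Sh3kbp1 and Trpv2. Their smallest Prdm1 effect was 0.29 ± 0.08 (Acpp, an acid phosphatase) and their largest was 1.82 ± 0.34 (Cachd1, at low signal of 13.3 to 200.2). Kcnip2, a potassium channel interacting protein, had a Tcf7 effect of -1.66 ± 0.18. Bend4, which encodes a BEN-domain protein, had 4351 and 4533 against 12575 and 9909.6 in the Prdm1 experiment and 3912 and 3791 against 1967 and 2149.7 in the Tcf7 experiment. Trpv2, a cation channel, had 340.3 and 444 against 784 and 839.8, and 751 and 689 against 396 and 389. Dsp (desmoplakin) and Adh1 (an alcohol dehydrogenase) are also transcripts of epithelial cells. Summed signal of 33 epithelial markers was higher in KO than in WT libraries of both experiments (values below). With the Tcf7 experiment fitted alone, 8 of the 32 markers tested rose and 2 (Reg3b and Reg3g) fell, beside 224 and 221 of all 10841 genes. Dsp and Adh1 were lower in Tcf7 KO libraries. The part of epithelial RNA in their Prdm1 effect was not tested.

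**Figure D2:**
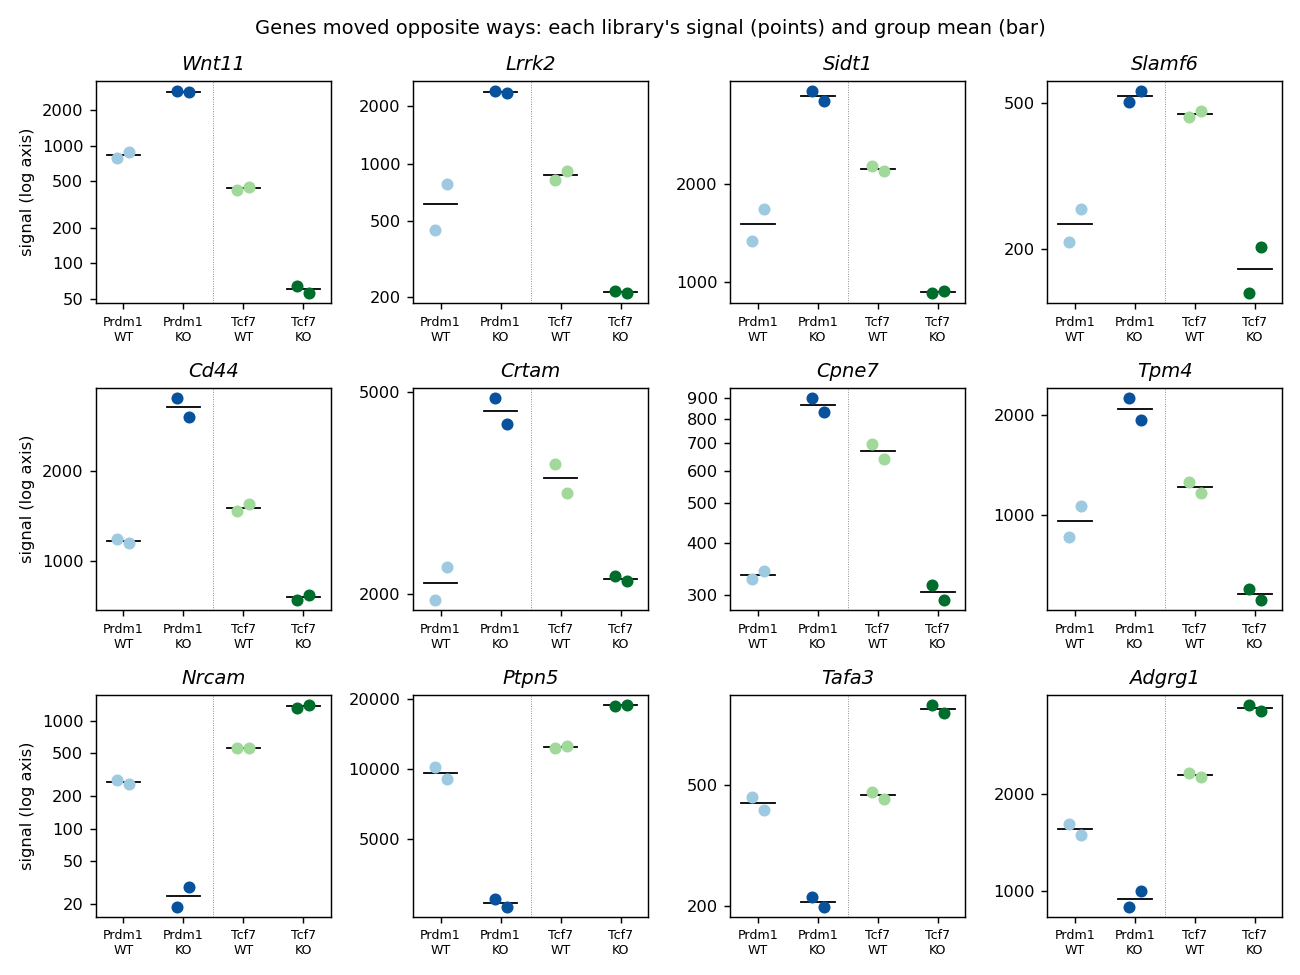
Signal of 12 genes moved opposite ways in each of the 8 libraries (points; log y axis, scaled per gene) with the group mean (bar), Prdm1 experiment to the left of the dotted line and Tcf7 experiment to the right. In the upper 8 genes the Prdm1 KO points lie above and the Tcf7 KO points below their WT points, as for Wnt11 (2922 and 2867, and 64.7 and 55.8); the lower 4 show the reverse.

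Prdm1 loss lowered and Tcf7 loss raised 5 genes. Nrcam, a neuronal cell adhesion molecule of the immunoglobulin superfamily (chromosome 12, 44328885 to 44601964), had 284 and 259.7 in Prdm1 WT and 19.1 and 29.1 in Prdm1 KO libraries. It had 557 and 559 in Tcf7 WT and 1302 and 1403 in Tcf7 KO libraries. Nrcam was picked after its values were seen, since its mean of the Prdm1 libraries is below the level set for naming. Its effects of -3.47 ± 0.20 and 1.28 ± 0.20 gave the largest difference of the 27 genes, -4.75 ± 0.29 (adjusted p = 3.0e-05). Ptpn5, a tyrosine phosphatase, had 10217 and 9101 against 2772 and 2558 in the Prdm1 experiment and 12271 and 12598 against 18749.8 and 18914 in the Tcf7 experiment. Its effects were -1.86 ± 0.08 and 0.60 ± 0.08. Adgrg1, an adhesion G protein-coupled receptor (GPR56) of cytotoxic lymphocytes, had 1612 and 1493 against 896 and 1002, and 2324 and 2255 against 3770.5 and 3604. Tafa3, which encodes a small secreted protein, had effects of -1.08 ± 0.13 and 0.94 ± 0.13. Themis, a regulator of TCR signalling, had the smallest Prdm1 effect of the 5, at -0.38 ± 0.11, beside a Tcf7 effect of 0.67 ± 0.11.

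Of the 4 genes moved alike, 1 rose (0.00922%) and 3 fell (0.0277%). Arfgef3, which encodes a protein of the Arf exchange factor family, was raised by both losses, from 193 and 283 to 392 and 376 in the Prdm1 experiment and from 257 and 251 to 647 and 671 in the Tcf7 experiment. Mras, a Ras-family GTPase, was lowered by both, from 1817 and 1418 to 956 and 1074 and from 1518 and 1391 to 748 and 656. Its effects were -0.66 ± 0.13 and -1.05 ± 0.13, and their difference was not called (0.39 ± 0.19, adjusted p = 0.26). Scrib, a cell polarity scaffold, had effects of -0.34 ± 0.09 and -0.53 ± 0.09. With each experiment fitted alone, Arfgef3 and Scrib lost the Prdm1 call (adjusted p = 0.12 and 0.17), and 2 of the 4 genes (Mras and Faxc) kept the class. Faxc, which falls outside the rule for named genes and was picked after its values were seen, had -1.51 ± 0.21 and -1.24 ± 0.21 at a signal of 82.6 to 270.0.

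A gene was assigned to 1 loss alone when it was called for that loss, not called for the other, and called for the difference. Prdm1 loss alone raised 478 genes (4.41%) and lowered 430 (3.97%), 8.38% of genes tested in all. Not being called is not absence of an effect, so a stricter subset was kept whose Tcf7 effect had a 95% interval within ±0.5 on the log2 scale. It held 128 of the 478 raised and 290 of the 430 lowered genes. When each experiment was fitted alone, 186 of the 908 genes were called for Tcf7 loss in the opposite direction and 4 in the same direction. In the stricter subset these numbers were 46 and 1 of 418. Of the 51 genes of the class chosen by the rule for named genes, 14 kept it when each experiment was fitted alone, 23 moved opposite ways, 1 (Olfm4) moved alike, 4 were called for Tcf7 loss alone (Cd160, Malt1, Reg3b and Traf1), and 9 were called for the difference only. The 23 include Prdm1 and Tcf7, the deleted genes themselves, whose fall in their own knockout was set by the design. Others that moved opposite ways included Gzma, Gzmb, Ccl5, Fasl, Lyl1, Ky, Cxcr6, Il2rb, Fcgr3, Tyrobp, Tnfrsf9, Entpd1, Kit, Xcl1, Kcnn4, Gpr174 and Hspa1a, all described below. For these genes the class depends on how the spread is pooled. Tcf7 itself shows the limit of the class. Its Prdm1 effect was 1.73 ± 0.22 (WT 6605 and 12467, KO 31096 and 28954). Its effect in its own knockout, -0.98 ± 0.22, was not called in the fit over both experiments (adjusted p = 0.18) and was called when the Tcf7 experiment was fitted alone (adjusted p = 4.1e-08). Prdm1 was likewise not called for Tcf7 loss in the fit over both experiments. It was called as raised by Tcf7 loss when each experiment was fitted alone.

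Cytotoxic effector genes were among the steepest falls with Prdm1 loss alone. Gzma, the granzyme A gene (chromosome 13, 113093825 to 113100981), had 267146 and 277468 in Prdm1 WT and 15701 and 7212 in Prdm1 KO libraries, and 343844 and 321734 in Tcf7 WT and 489736 and 463276 in Tcf7 KO libraries. The Prdm1 KO values were far below WT, while the Tcf7 KO values were somewhat above WT. Its Prdm1 effect was -4.68 ± 0.28 (adjusted p = 1.6e-05). The Tcf7 effect was 0.52 ± 0.28, not called over both experiments (adjusted p = 0.89) and called in the Tcf7 experiment alone (adjusted p = 1.8e-05). Gzmb (chromosome 14, 56258838 to 56262260) had 178556 and 175775 against 18148 and 9309 in the Prdm1 experiment and 191919.7 and 178379 against 273199 and 266458 in the Tcf7 experiment. Of the 23 cytotoxic genes tested, 14 fell and 1 (Tnf, 2.57 ± 0.38) rose with Prdm1 loss, and 8 did not pass the test, beside 7.43% of all genes that fell and 7.81% that rose. The list's median Prdm1 effect was -0.76, beside -0.04 for all genes tested. For Tcf7 loss the limma fit called 0 of the 23, with 5 higher and none lower at an unadjusted p under 0.05, and edgeR called 0. At that unadjusted p, 266 of all 10841 genes were higher and 394 lower. When the experiment was fitted alone, 9 of the 23 were raised (224 of all genes rose in that fit and 221 fell). The median Tcf7 effect of the list was 0.21, beside 0.00 for all genes.

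Other members of the cytotoxic list are described with genes outside it. Ccl5, the gene of the chemokine RANTES, had 128143 and 114509 in Prdm1 WT and 26183 and 22771 in Prdm1 KO libraries (effect -2.31 ± 0.11, adjusted p = 5.0e-06) beside a Tcf7 effect of 0.34 ± 0.11. Prf1, the pore-forming perforin gene, had 4218 and 3220 against 629 and 408.5 (effect -2.86 ± 0.19) and a Tcf7 effect of 0.21 ± 0.19. The death ligand gene Fasl belonged to the stricter subset, with 6579 and 5981 against 2996 and 3209 and a Tcf7 effect of 0.30 ± 0.07. Lyl1, a basic helix-loop-helix factor (chromosome 8, 84701457 to 84704715), had the steepest fall among the named genes, from 533 and 385 to 10.6 and 8.32 (-5.45 ± 0.22). Its signal was 383 and 406 in Tcf7 WT and 623 and 675 in Tcf7 KO libraries (0.72 ± 0.22, adjusted p = 0.44). Ky, the kyphoscoliosis peptidase gene, fell from 1301 and 733 to 53.0 and 15.6.

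The lists of residency genes and of cytokine and chemokine receptors were split between rises and falls (counts below), and the genes next described, from these and other lists, are some that fell. Cxcr6, a chemokine receptor of tissue-resident T cells, had 5379 and 5525 against 2068 and 1664 in the Prdm1 experiment, and 6742 and 5884 against 9849 and 9609.8 in the Tcf7 experiment. Its Tcf7 effect of 0.63 ± 0.11 just missed the threshold (adjusted p = 0.053), beside a Prdm1 effect of -1.55 ± 0.11. Il2rb, the receptor β chain shared by interleukins 2 and 15, went from 103213 and 99227 to 54561 and 47551 and had a Tcf7 effect of 0.41 ± 0.10. Fcgr3 and Tyrobp, an Fc receptor and the DAP12 adaptor of natural killer cells, had Prdm1 effects of -1.17 ± 0.12 and -0.64 ± 0.09. The costimulatory receptor gene Tnfrsf9 (4-1BB) and the ectonucleotidase gene Entpd1 (CD39) had Prdm1 effects of -1.01 ± 0.12 and -0.66 ± 0.10, beside Tcf7 effects of 0.40 ± 0.12 and 0.50 ± 0.10.

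Of 18 stem-like and memory genes tested, 10 rose with Prdm1 loss and 8 did not pass the test, beside 7.81% of all genes that rose. The list's median effect was 0.63, beside -0.04 for all genes. For Tcf7 loss 1 (Slamf6) fell and 17 did not pass, with a median of -0.06. When the Tcf7 experiment was fitted alone, 6 fell, beside 221 of all 10841 genes that fell in that fit. Kit, the stem cell factor receptor, had 11594 and 17857 in Prdm1 WT, 36959.7 and 37801 in Prdm1 KO, 21601 and 22168 in Tcf7 WT and 14282 and 14909.7 in Tcf7 KO libraries. The Prdm1 effect was 1.38 ± 0.16, and the Tcf7 effect of -0.58 ± 0.16 was called only with that experiment alone (adjusted p = 0.33 over both, 2.7e-06 alone). Kit is also a mast cell gene. The mast cell genes Cpa3, Mcpt1 and Mcpt2 were at 47.6 and 88.9, 0 and 12.1, and 0 and 10.3 in Prdm1 WT libraries and at 33.9 and 46.8, 14.8 and 2.08, and 3.18 and 2.08 in Prdm1 KO libraries. Id3, an inhibitor of E proteins, had 271 and 534 against 1387 and 1069.5 with Prdm1 loss (1.68 ± 0.27) and a Tcf7 effect of 0.08 ± 0.27 (677 and 689 against 643 and 806). Bach2, Ltb and Myb had Prdm1 effects of 1.05 ± 0.18, 1.04 ± 0.17 and 1.07 ± 0.24. The difference of effects of Id3, 1.60 ± 0.38, lost its call without Prdm1 KO replicate 1 (1.41) and without any 1 of the Tcf7 libraries (1.44 to 1.76).

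Other lymphocyte genes raised by Prdm1 loss alone included Cd160, the natural killer receptor of these cells, with 6555 and 12267 against 17310.2 and 19212 (1.02 ± 0.22), beside 18924 and 18073 against 14131 and 13788 in the Tcf7 experiment (-0.41 ± 0.22). The difference of effects of Cd160 lost its call without Prdm1 KO replicate 2 and without any 1 of the Tcf7 libraries (1.35 to 1.46). With each experiment fitted alone Cd160 changed class, since its Prdm1 rise was not called (adjusted p = 0.076) and its Tcf7 fall was (adjusted p = 7.0e-05). Xcl1, a chemokine for cross-presenting dendritic cells, had 2148 and 3897 against 8330.4 and 9736 (1.64 ± 0.22) and a Tcf7 effect of -0.30 ± 0.22. Cd83 rose from 125 and 128 to 419.5 and 425 (1.73 ± 0.21), with a Tcf7 effect of -0.81 ± 0.21. Kcnn4, the calcium-activated potassium channel of activated T cells, had effects of 1.30 ± 0.16 and -0.56 ± 0.16. Gpr174, a lysophosphatidylserine receptor, had 1.16 ± 0.14 and -0.63 ± 0.14. The major histocompatibility class II genes H2-Aa and H2-Eb1, which are not counted here as lymphocyte genes, rose by 1.51 ± 0.24 and 1.09 ± 0.25. Their signal was low, at 60.7 to 354. Epithelial markers rose in the same libraries (below), and which cells held the class II transcripts was not tested. Bcl6, which encodes a repressor that opposes BLIMP1, had 3258 and 2492 against 4956 and 3127 (0.47 ± 0.19) and 2471 and 2589 against 1929 and 1950.0 (-0.38 ± 0.19), and neither effect nor the difference was called. Cd8a had effects of -0.30 ± 0.10 and 0.03 ± 0.10, and neither was called. Other defining genes of these cells, among them Cd3e and Cd3g, were lowered by Prdm1 loss (values below).

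The 5 genes named for the largest rises with Prdm1 loss alone are all expressed in intestinal epithelium. Ceacam1, an epithelial and lymphocyte adhesion molecule, had 74.5 and 77.7 in Prdm1 WT, 447 and 583 in Prdm1 KO, 390.2 and 372 in Tcf7 WT and 392 and 376 in Tcf7 KO libraries. Dmbt1, a mucosal scavenger protein, had 754 and 794 against 3608 and 6456, with 6287 and 6189 against 5698 and 6318 in the Tcf7 experiment. For both genes the Prdm1 KO values were above WT, with replicates of Dmbt1 far apart, and the Tcf7 groups overlapped. Olfm4 (a crypt stem cell gene), Cps1 (a urea cycle enzyme of enterocytes) and Reg3b (an antimicrobial lectin) had Prdm1 effects of 2.64 ± 0.18, 2.44 ± 0.12 and 2.48 ± 0.47. Of 32 epithelial markers tested, 25 rose with Prdm1 loss, beside 7.81% of all genes, with a median of 1.79. The limma fit called 0 of the 32 for Tcf7 loss, with 6 higher and none lower at an unadjusted p under 0.05 and 0 called by edgeR. At that unadjusted p, 266 of all 10841 genes were higher and 394 lower. When the experiment was fitted alone, 8 markers rose and 2 fell, beside 224 of all genes that rose and 221 that fell. The median Tcf7 effect was 0.32.

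Summed signal of 33 epithelial markers was 9008 and 9976 in Prdm1 WT, 20488 and 35646 in Prdm1 KO, 25987 and 25157 in Tcf7 WT and 32900 and 31179 in Tcf7 KO libraries. This was 0.0257% to 0.114% of a library's signal, and none of the markers was at 0 in all libraries. Epcam was at 2744 and 2778 in Prdm1 WT and 2763 and 2812 in Prdm1 KO libraries and was not called. It differed in this from most of its list. Limma called 25 of the 32 markers tested as raised by Prdm1 loss, and 31 were higher at an unadjusted p under 0.05. The Paneth cell genes Lyz1 and Defa24 were highest in Prdm1 KO replicate 2, at 6284 and 3553, against 1355 and 591 in Prdm1 KO replicate 1. The part of epithelial RNA in the genes raised by Prdm1 loss alone was not tested. The summed signal of the 11 defining IEL genes was 862210.0 and 889488 in Prdm1 WT and 352976 and 343831 in Prdm1 KO libraries, where Gzma and Gzmb carried most of the drop. In the Tcf7 experiment it was 1077283 and 1031703 in WT and 1347049 and 1316154 in KO libraries. Of these 11 genes, Prdm1 loss lowered 6 and raised 1 (Cd160), beside 7.43% of all genes lowered and 7.81% raised. The 6 were Gzma, Gzmb, Il2rb, Cd3e (-0.43 ± 0.08), Cd3g (-0.36 ± 0.10) and Cd244a (-0.29 ± 0.08). Summed signal of 13 myeloid markers was 12951 and 10464 in Prdm1 WT, 6384 and 6267 in Prdm1 KO, 25389 and 25467 in Tcf7 WT and 27100 and 27507 in Tcf7 KO libraries. Itgax carried most of this sum in every library (11973 and 9598 in Prdm1 WT, 5995 and 5809 in Prdm1 KO libraries). Of the 4 markers that passed the filter, Itgam and Itgax fell and Lyz2 rose with Prdm1 loss. Lyz2 went from 40.3 and 44.0 to 92.2 and 250.5, and Cd68 was at 127 to 209 without a call. Csf1r and C1qa were at most 11.4 in any library. The part of myeloid RNA in these results was not tested. The only 2 gamma-delta T cell genes in both tables summed to at most 49.2. Summed signal of 10 CD4 and CD8 αβ T cell markers was 5215 and 5113 in Tcf7 WT and 6092 and 6069 in Tcf7 KO libraries. It was 7224 and 6069 in Prdm1 WT and 6061 and 4655 in Prdm1 KO libraries. The joint fit called 0 of the 7 tested for Tcf7 loss, and 2 (Cd5 and Ctla4) rose when fitted alone. With Tcf7 loss Cd5 went from 121 and 80.6 to 280 and 326, and Thy1 from 1663 and 1777 to 1316 and 1531. The part of such cells in the Tcf7 effects was not tested.

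**Figure D3:**
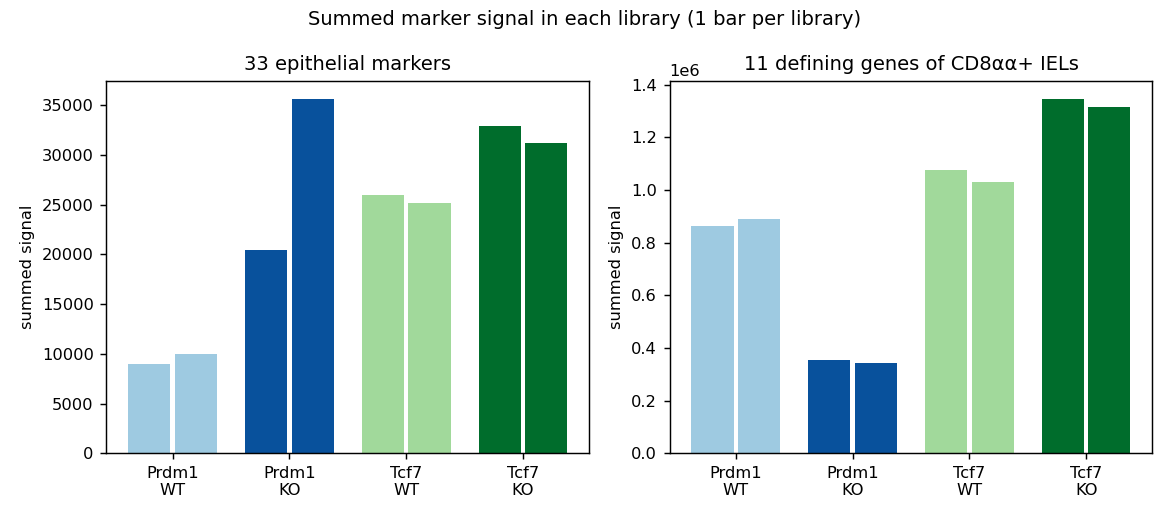
Summed signal of 33 epithelial markers (left) and 11 defining genes of CD8αα+ IELs (right) in each library, 1 bar per library in replicate order, axis from 0. Both experiments are drawn on 1 axis per panel, and bars are to be compared within an experiment only. In the Prdm1 experiment the epithelial sum is lowest in the WT libraries (9008 and 9976) and highest in KO replicate 2 (35646), and the IEL sums are lowest in both KO libraries (352976 and 343831).

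Tcf7 loss alone moved 7 genes (0.0646%), of which 3 rose (0.0277%) and 4 fell (0.0369%). Pdcd1, the inhibitory receptor PD-1 (chromosome 1, 94038305 to 94052553), had 141 and 146 in Tcf7 WT and 925 and 827 in Tcf7 KO libraries, and 123 and 152 in Prdm1 WT and 145 and 206 in Prdm1 KO libraries. Tcf7 KO values stood far above Tcf7 WT, and the Prdm1 groups overlapped. The Tcf7 effect was 2.60 ± 0.21 (adjusted p = 0.0019), the Prdm1 effect 0.34 ± 0.21 (adjusted p = 0.32), and the difference -2.27 ± 0.29 (adjusted p = 0.0015). Specc1 and Myo18a, a cytospin and an unconventional myosin, also rose, by 0.93 ± 0.13 and 0.89 ± 0.13. Rnf43, a ubiquitin ligase that removes Wnt receptors and is a known Wnt target, had 1723 and 1759 in Tcf7 WT and 1154 and 1093 in Tcf7 KO libraries (-0.63 ± 0.09, adjusted p = 0.018). In the Prdm1 experiment Rnf43 had 1816 and 1669.6 in WT and 2001 and 1846 in KO libraries, groups that lay narrowly apart (0.14 ± 0.09, not called). Morc1 fell by 1.07 on the log2 scale (adjusted p = 0.018) and Fam241a by 0.88 (adjusted p = 0.024). Atp6v0d2, a subunit of the vacuolar proton pump that falls outside the rule for named genes, had 109 and 161 in Tcf7 WT and 13.9 and 19.9 in Tcf7 KO libraries (-2.92 ± 0.34). Without any 1 of the Tcf7 libraries the class of Tcf7 loss alone held at most 1 gene, and the differences of Morc1 and Specc1 were then not called. It held 29 genes without Prdm1 WT replicate 1 and 16 without Prdm1 WT replicate 2. The difference of Morc1 also lost its call without either Prdm1 KO library, and that of Specc1 without Prdm1 KO replicate 2. For Morc1, Rnf43 and Specc1 the 95% interval of the Prdm1 effect lay within ±0.5. Zfhx3, called for Tcf7 loss only, was not called for the difference (Tcf7 effect 1.12 ± 0.15, Prdm1 effect 0.42 ± 0.15).

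Counts for the remaining lists are read against the shares over all genes, where Prdm1 loss raised 7.81% and lowered 7.43%, and Tcf7 loss raised 0.0922% and lowered 0.268%. Among Wnt pathway genes, 7 of 34 rose with Prdm1 loss and 3 (Dkk3, Rnf43 and Wnt11) fell with Tcf7 loss. Dkk3 was not called for Tcf7 loss by edgeR. The Wnt pathway genes raised by Prdm1 loss were Ccnd1, Ctbp2, Dkk3, Myc, Tcf7, Tle1 and Wnt11. The medians of 0.13 and 0.00 were near those of all genes. In the list of 35 TCR signalling genes, 2 rose and 6 fell with Prdm1 loss, and 1 (Themis) rose and 1 (Dgka) fell with Tcf7 loss. Both lists had 2 members moved opposite ways. T-cell transcription factors were split, with 10 of 56 raised and 8 lowered by Prdm1 loss. Batf3, a basic leucine zipper factor, rose from 84.8 and 335 to 1228 and 1602 (3.05 ± 0.50), and Runx1 fell from 3116 and 1878 to 451 and 216 (-2.95 ± 0.31). For Tcf7 loss limma called 0 of the 56, with 4 higher and 2 lower at an unadjusted p under 0.05, and edgeR called 0. Of all 10841 genes, 266 were higher and 394 lower at that unadjusted p. When fitted alone, 6 of the 56 were raised and 4 lowered, beside 224 and 221 of all genes.

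Prdm1 loss raised 7.81% and lowered 7.43% of all genes, the background for the counts that follow. Natural killer receptor genes were split as well, with 5 of 26 raised and 6 lowered by Prdm1 loss, and 1 (Crtam) lowered by Tcf7 loss. Residency and gut homing genes had 6 of 26 raised and 6 lowered by Prdm1 loss, and 1 (Itgal) lowered by Tcf7 loss. Inhibitory receptor and TCR-induced genes had 5 of 24 raised and 5 lowered by Prdm1 loss, and 1 (Pdcd1) raised by Tcf7 loss. Immediate-early and heat-shock genes had 16 of 40 raised and 2 lowered by Prdm1 loss, a list that also responds to cell handling, and a median of 0.34. Hspa1a, a heat-shock chaperone, had 24545 and 28035 against 61621 and 43948 in the Prdm1 experiment and 26854 and 26734 against 20336 and 19709.8 in the Tcf7 experiment (0.99 ± 0.14 and -0.42 ± 0.14). Survival and apoptosis genes had 2 of 33 raised and 10 lowered by Prdm1 loss, with a median of -0.21. Ribosomal proteins (1 of 79), oxidative phosphorylation (1 of 72) and cell cycle genes (1 of 39) had few members called for Prdm1 loss. At an unadjusted p under 0.05, 20 of the 79 ribosomal protein genes were higher and 0 lower with Prdm1 loss (median 0.26), against 1447 higher and 1793 lower of all 10841 genes, while oxidative phosphorylation genes had 1 higher and 1 lower. Among metabolic lists, glycolysis genes had 3 of 22 raised and 3 lowered, cholesterol synthesis genes had 4 of 24 lowered, and amino acid carriers had 4 of 15 raised and 2 lowered by Prdm1 loss. Cytokine and chemokine receptors had 5 of 26 raised and 5 lowered, interferon-stimulated genes 2 of 37 raised and 2 lowered (both below the background), and antigen presentation genes 5 of 24 raised. Of potassium channels, purine receptors and orphan receptors, 2 of 18 rose and 3 fell. Of 23 corepressors of BCL6 and BLIMP1, Prdm1 itself was the 1 called.

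How many genes moved opposite ways depended on how the spread was pooled. The joint fit shares 1 residual spread between a noisier and a quieter experiment, so its median standard error of 0.11 lay between the 0.14 of the Prdm1 and the 0.08 of the Tcf7 experiment fitted alone. With each experiment fitted alone, Tcf7 loss was called for 445 genes (4.1%) and Prdm1 loss for 723 (6.67%), 149 genes (1.37%) moved opposite ways and 21 (0.194%) alike. Of those 149, 68 rose and 81 fell with Prdm1 loss, and 24 of the 27 genes of the joint fit kept their class. The 3 others, Acpp, Dgka and Themis, kept the Tcf7 call and lost the Prdm1 call. With edgeR 23 of the 27 kept their class, while Camsap2, Dkk3 and Trpv2 lost the Tcf7 call and Themis the Prdm1 call. Leaving out 1 Tcf7 library left 1 (WT replicate 1), 1 (WT replicate 2), 4 (KO replicate 1) or 1 (KO replicate 2) genes moved opposite ways. Leaving out Prdm1 WT replicate 1 or 2 gave 74 each, and leaving out Prdm1 KO replicate 1 or 2 gave 35 each. None of the 27 genes moved alike under any alternative run.

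**Figure D4:**
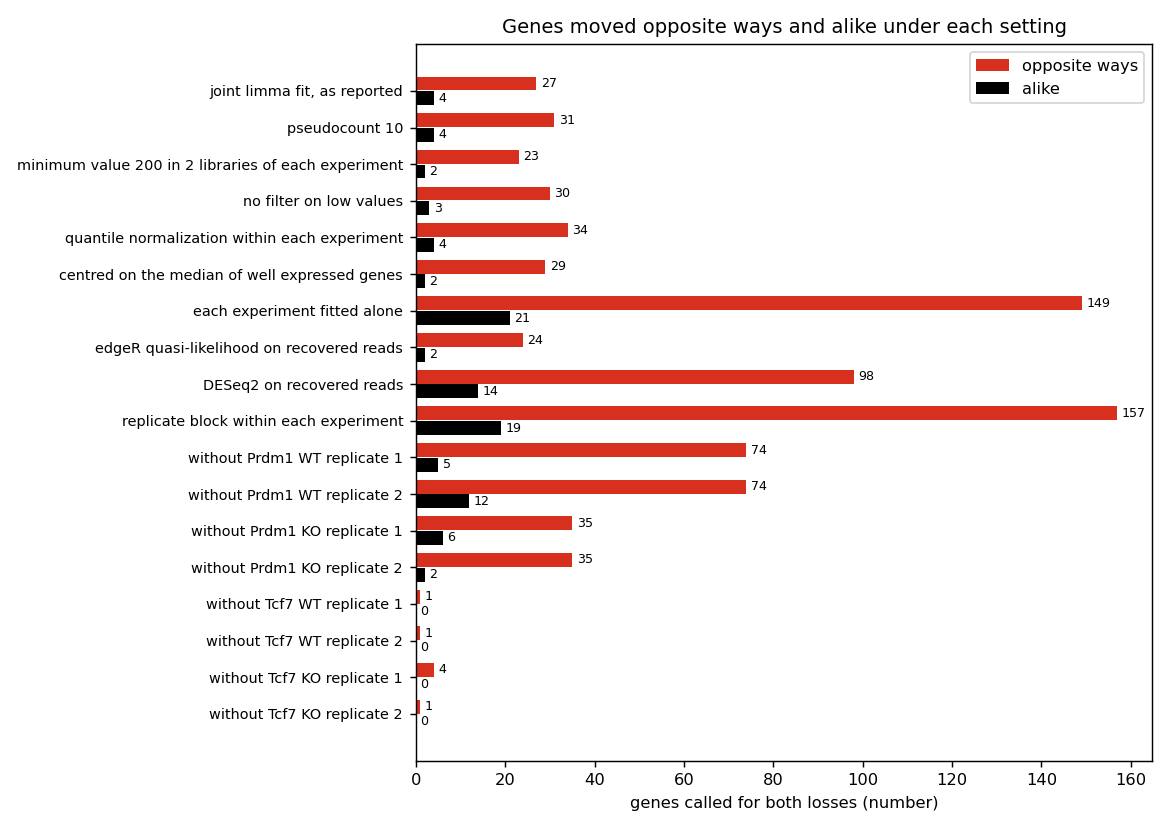
Number of genes called for both losses that moved opposite ways or alike (x axis, axis from 0) in the fit reported and under each alternative (y axis). Genes moved opposite ways outnumber those moved alike in every row, from 1 against 0 without Tcf7 WT replicate 1 to 157 against 19 with a replicate block.

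Read over all genes called for Prdm1 loss, the Tcf7 estimate leaned to the other side mostly among lowered genes. Of the 806 genes lowered by Prdm1 loss, 573 (71.1%) had a Tcf7 estimate above 0, against 49.8% of all genes. Of the 847 raised, 464 (54.8%) had a Tcf7 estimate below 0, against 50.2% of all genes. These are shares of estimates over genes of the same libraries and carry no test. For another 85 genes (0.784%) the difference of effects was called and neither single effect was. With each experiment fitted alone, 38 of the 85 kept this class, and 26 were lowered and 14 raised by Tcf7 loss alone. Ctla4, an inhibitory receptor gene picked after its values were seen, had 4679 and 3524 against 3241 and 2077 in the Prdm1 experiment and 1239 and 1102 against 1879 and 1882 in the Tcf7 experiment, WT first. Its difference was -1.33 ± 0.27 (adjusted p = 0.014). With each experiment fitted alone by limma, Ctla4 was called as raised by Tcf7 loss (adjusted p = 0.00012) and not called for Prdm1 loss (adjusted p = 0.16).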

How the data were processed

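Bulk RNA-seq of sorted IELs was used from 8 libraries, and 12 of the series were not used here. Trimming with Trim Galore 0.4.4 and the tools RSEM, featureCounts (Subread), Bowtie2 and DESeq2 on mm10 are listed, without roles, per the submitters' processing notes; libraries were made by either of 2 providers, per the labels' protocols, without saying which. The authors deposited a gene signal, named FPKM, that holds reads divided by 1 size factor per library: 100% of values were whole reads within 0.01 of a read. The reads so recovered went into edgeR 4.0.16 and DESeq2 1.42.0 as alternatives; in Tcf7 KO replicate 1 a read is worth 0.995, a step close to 1, and its reads were recovered like those of the other 7. Values were fitted as log2(signal + 1) with limma 3.58.1 in R 4.3.3 (4 groups, trended empirical Bayes, two-sided, Benjamini-Hochberg threshold 0.05), after a filter of at least 50 in 2 libraries of each experiment. The limma script was tested on simulated data, with equal dispersion in all libraries and each changed gene changed in 1 experiment only. It recovered a smaller share of the changed genes for the difference of effects than for either single effect. The recovery first required was missed for the difference and was then required of the single effects only. Such data cannot check the unequal spread of the experiments or the classes of both losses. Named genes were 8 fixed genes, up to 6 per class of both losses and 5 per class of 1 loss at a mean of at least 250, and up to 3 per list, with KO and WT apart; pseudogenes, sex-linked genes, segments of antigen receptors and unnamed models were passed over. Other genes given with values complete a class or list and were chosen after their values were seen. Members and lists (21 pathways, 8 cell types) were chosen with earlier results of these data known. Positions are from GENCODE vM21 (GRCm38), which held 98.98% of the symbols. Alternatives were another pseudocount, filter, scaling, tool or fit, a replicate block, and each library left out.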

Additional observations from a re-analysis of the deposited data

How the results depend on the processing

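Counts that moved by more than 1.5 times are given here. With each experiment fitted alone, Prdm1 loss called 723 genes and Tcf7 loss 445, with 149 moved opposite ways, 21 alike, 514 by Prdm1 loss alone and 124 by Tcf7 loss alone. The 2 experiments had unequal spread, which the joint fit averages. DESeq2 on recovered reads called 144 genes for Tcf7 loss, with 98 opposite, 14 alike and 20 by Tcf7 loss alone. Genes moved alike were 2 with edgeR, 2 after centring on well expressed genes and 2 with a minimum of 200, where 350 genes had the higher Prdm1 effect. The cause was not tested. Centring changed the split of Prdm1 calls from 847 raised and 806 lowered to 1042 and 510.

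Replicate numbers were not shown to pair the libraries, since each experiment has 2 numbers; same-numbered deviations correlated at 0.40 (Prdm1) and 0.10 (Tcf7). A replicate block gave 3140 genes for Prdm1 loss, 215 for Tcf7 loss, 1076 higher and 1173 lower for the difference, 157 opposite, 19 alike, 1863 by Prdm1 loss alone and 31 by Tcf7 loss alone.

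Leaving out 1 library at a time gave 1001 to 2167 genes for Prdm1 loss, 1 to 111 for Tcf7 loss, 258 to 783 higher and 205 to 723 lower for the difference, 1 to 74 opposite, 0 to 12 alike, 438 to 1297 by Prdm1 loss alone and 0 to 29 by Tcf7 loss alone. The single library then left in a group takes its spread from the other groups. Of 1288 values of the 76 named genes under alternatives, 0 changed sign, 95 lost and 7 gained the call; 66 of the 95 came from leaving out a Tcf7 library and 18 from leaving out a Prdm1 library. With 2 libraries per group, an effect that was not called is not shown to be absent.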

Other observations

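Of the 11 tested genes whose Prdm1 effect was below -4 on the log2 scale, 4 are neighbours on chromosome 13 (GRCm38). They are Cdc20b (113035111 to 113091195), Gpx8 (113042753 to 113046410), Gzma (113093825 to 113100981) and Gzmk (113171608 to 113225908). Cdc20b, a homologue of a cell cycle activator, had 3482 and 1965 in Prdm1 WT and 195 and 47.8 in Prdm1 KO libraries, and Gpx8, a glutathione peroxidase family member, had 1439 and 664 against 73.1 and 10.4. In the Tcf7 experiment Cdc20b had 1931 and 1948 against 3358 and 3201, and Gpx8 had 639.5 and 615 against 1567 and 1486. Gpx8 lies inside Cdc20b on the other strand, and the sources used here do not say whether counting used strand, so their reads may not be told apart. Within 500 kb of Gzma, 9 of 15 protein-coding genes were tested. Of these 9, the 4 genes above and Snx18 (-0.94) fell with Prdm1 loss, beside 7.43% of all genes tested. The window was placed around Gzma because of the 4 genes, so this count is not that of an unselected set. Ccno, the nearest tested gene on the Cdc20b side, had 398 and 213 in Prdm1 WT and 182 and 59.2 in Prdm1 KO libraries, an effect of -1.48 that was not called (adjusted p = 0.065). The effects of Dhx29, Mtrex and Slc38a9, next along, were -0.23, -0.04 and 0.03 and were not called. The neighbourhood was noticed after the values were seen.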
